A study of Homo sapiens with 6 samples.

Results

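The genes described here encode lysosomal hydrolases and subunits of the proton pump that acidifies the lysosome. They were every row of the deposited table whose symbol was CTSB, CTSD or MAN2B1, or began with ATP6V. That gave 9 genes of the 4546 listed: the proteases CTSB and CTSD, the mannosidase MAN2B1, and the pump genes ATP6V0C, ATP6V0D1, ATP6V0D2, ATP6V0E1, ATP6V0A4 and ATP6V1F. RNA was sequenced in 6 libraries of A549, a long-established cell line from a human lung adenocarcinoma. In 3 libraries the cells had been given 50 nM mitoxantrone, a cancer drug that traps DNA topoisomerase II on broken DNA, and in 3 they had been given DMSO, its solvent, diluted 1/1000. Both groups were harvested at 48 hours, and both consist of a single cell line. Nothing in the labels says whether libraries of a group came from separate cultures, and p-values therefore cover no more than the spread seen among these libraries, possibly a technical one.

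The table held only genes that had passed a threshold on these same libraries. Its smallest absolute log2 fold change was 1.00 and its largest adjusted p was 0.0497. A gene that is not listed may have changed by less, so it is described only as not listed, and a listed gene that passes a second test here gives no independent evidence of change. The recovered library totals were 16681380 to 19352443 reads with mitoxantrone and 20380674 to 21781220 with DMSO, of which the listed genes held 16.9% to 17.3%. The epithelial keratin genes KRT8 and KRT19 were both listed, with means of 137470 and 7706 normalized counts with mitoxantrone, against 63454 and 582 with DMSO. Of 16 lung epithelial markers 4 were listed, CDH1 and the keratins higher and MUC5AC lower, while EPCAM and the surfactant genes were not. Of 11 fibroblast and endothelial markers 3 were listed, VWF and CDH5 higher at few reads and COL1A1 lower, with a sum of 250 to 322 normalized counts with mitoxantrone and 575 to 645 with DMSO.

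Lysosomes break down proteins, glycans, lipids and nucleic acids with hydrolases that work in acid. The acid is made by the vacuolar ATPase, or V-ATPase, a rotary pump with a cytosolic V1 sector that hydrolyses ATP and a membrane V0 sector that carries the protons. Cathepsin B is a cysteine protease and cathepsin D an aspartic protease, and both are made as inactive precursors that mature in acid. Alpha-mannosidase, the product of MAN2B1, removes mannose from the glycans of degraded glycoproteins. Many lysosomal genes carry near their start a short palindrome, GTCACGTG followed directly by AC, that is bound by TFEB and its relatives TFE3 and MITF.

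Promoter sequences of RefSeq (GRCh38.p14; 250 bases before to 50 after each start) were found for 6 of the 9 genes, in 8 windows. Both strands were searched for CACGTG, GTCACGTG and the whole palindrome. Each of these contains the one before it, so the matches overlap. CTSD and ATP6V0D1 had GTCACGTG, and the windows of MAN2B1, ATP6V0C, ATP6V0A4 and ATP6V1F had no match to any of the motifs. The following stretches of 30 bases are shown because they hold the match, which is in capitals, in the 2 genes and in 4 other listed lysosome genes with the whole palindrome. Each is on the strand of its gene, 5′ to 3′.
CTSD: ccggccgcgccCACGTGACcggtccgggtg
ATP6V0D1: gcccccttatgGTCACGTGaggcgcttgcg
GAA: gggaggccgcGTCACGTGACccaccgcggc
GNPTG: ggtccccgtgGTCACGTGACcgtcacttca
PLBD2: gcagagcgcaGTCACGTGACccgggctgcg
PLD3: agtcgtaaccGTCACGTGACcgcccaccgt

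The CTSD stretch lies at chr11:1763956-1763985 on the minus strand, and its match begins 47 bases before the RefSeq start, where it reads as the reverse complement. The ATP6V0D1 stretch lies at chr16:67481200-67481229, also on the minus strand, and its match begins 61 bases before the start. By the principal transcripts of GENCODE 29 both genes start further upstream, and both stretches then fall just inside the transcript. GAA encodes the glucosidase that degrades glycogen (chr17:80101493-80101522, plus strand), and GNPTG a subunit of the enzyme that starts the mannose 6-phosphate tag (chr16:1351907-1351936, plus strand). PLBD2 encodes a phospholipase-like protein of the lysosome (chr12:113358551-113358580, plus strand) and PLD3 a lysosomal nuclease (chr19:40348548-40348577, plus strand). Of the 27305 genes in the RefSeq table, 8.77% had a window with CACGTG, 2.93% with GTCACGTG and 0.421% with the whole palindrome. Among listed lysosome and autophagy genes that were higher with mitoxantrone, 39 had windows, and 28.2% of these genes held CACGTG, 20.5% GTCACGTG and 10.3% the whole palindrome. The shares over all higher genes with a window, 1500 in number, were 9.33%, 3.33% and 0.867% of genes. Over the 1203 lower genes they were 12.1%, 5.40% and 0.748%. These shares are descriptions with no test, and a match is not evidence that a factor binds there.

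All 9 genes were higher after mitoxantrone, and in each of them the 3 mitoxantrone libraries lay above the 3 DMSO libraries. Among all listed genes 100% were called in either direction and 58.9% were called higher. The groups did not overlap for 98.3% of listed genes in either direction, and for 57.5% with mitoxantrone above. Since the table was selected on this contrast, nothing is read from the count of 9. For the 7 genes whose mean normalized count reached 50, the groups differed by 1.05 to 1.63 on the log2 scale, between 2.07-fold and 3.08-fold. Their median log2 fold change was 1.37, against 1.46 for the 1180 higher genes with a mean of at least 50. ATP6V0A4 and ATP6V0D2 had few reads. Per 1000000 reads of the library total, the 9 genes together took 1919, 1826 and 1773 reads with mitoxantrone, against 696, 728 and 729 with DMSO. CTSB and CTSD made up 69.5% to 70.1% of those reads with mitoxantrone and 67.0% to 67.9% with DMSO. In bulk RNA, a change in the number of cells that express a gene and a change in RNA per cell cannot be told apart.

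**Figure D1:**
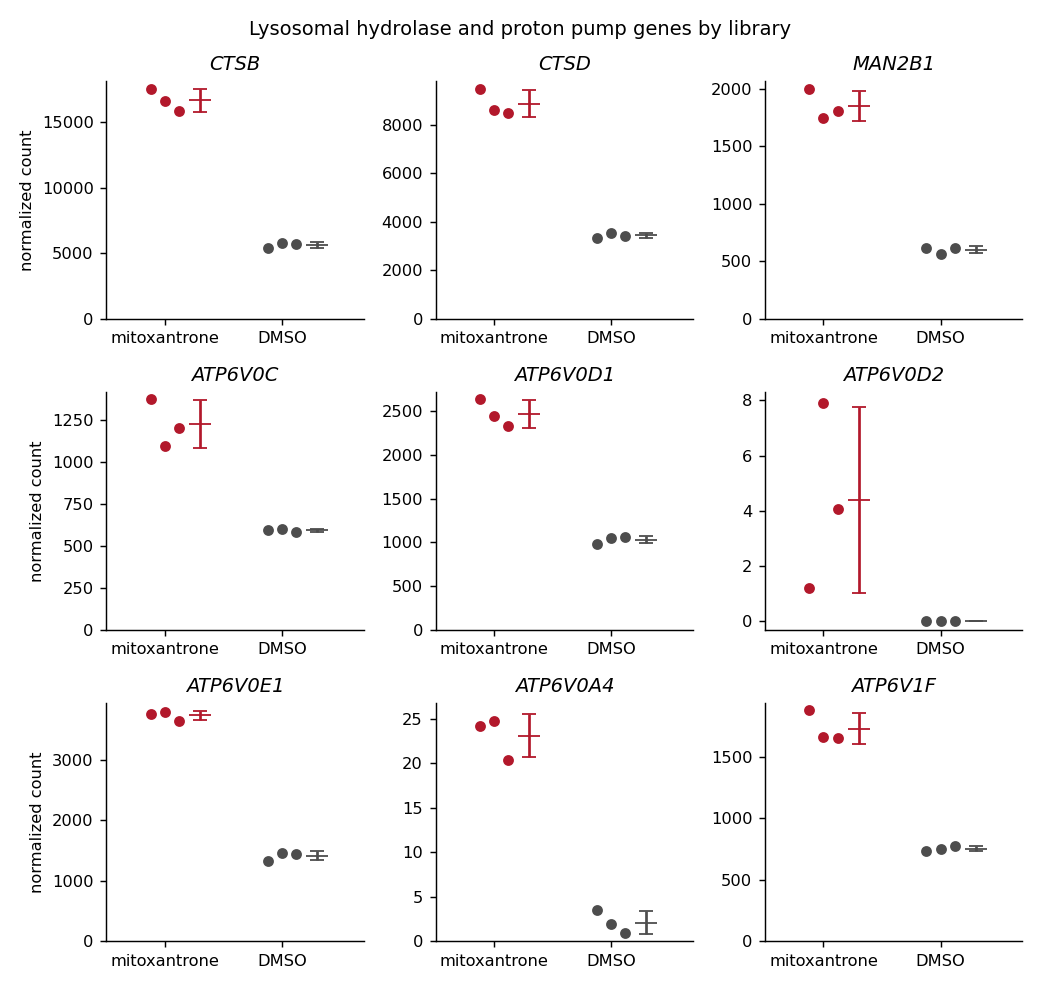
Normalized counts (reads divided by size factors, y axis) of the 9 genes in each of the 3 mitoxantrone libraries (red) and 3 DMSO libraries (grey), with the mean ± SD beside the points and a separate scale for each gene. In every panel the mitoxantrone libraries lie above the DMSO libraries, and ATP6V0D2 is at 0 in all 3 DMSO libraries.

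CTSB (ENSG00000164733) lies at 11700033 to 11726957 on chromosome 8, minus strand. Positions are those of the deposited table, whose build is not given in the sources used here. Its level in FPKM (fragments scaled to gene length and library size) was 117, 113 and 108 with mitoxantrone 1 to 3, against 38.9, 41.3 and 41.0 with DMSO 1 to 3. The lowest mitoxantrone library was 2.73 times the highest DMSO library in normalized counts. The mean normalized count was 16688 ± 854 with mitoxantrone and 5633 ± 211 with DMSO (SD, n = 3 libraries each). The log2 fold change was 1.57 ± 0.06 (SE), or 2.96-fold, with an adjusted p of 1.5e-25 in edgeR's quasi-likelihood test with Benjamini-Hochberg adjustment over all 4546 listed genes.

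CTSD (ENSG00000117984; chromosome 11, 1773982 to 1785222, minus strand) had 157, 146 and 143 FPKM with mitoxantrone, against 59.7, 62.5 and 61.1 with DMSO. Mitoxantrone 1 was the highest library and the groups were well apart. Mean normalized counts were 8873 ± 547 with mitoxantrone and 3436 ± 106 with DMSO, a log2 fold change of 1.37 ± 0.06 (edgeR, adjusted p = 8.7e-23). Some other listed genes overlap CTSD. On the same strand, RP11-295K3.1 shared 6300 bases, 56.0% of the span of CTSD, and had 59.0 ± 13.5 normalized counts with mitoxantrone and 9.30 ± 4.70 with DMSO. The antisense gene AC068580.6 had 29.3 ± 7.48 and the sense gene AC068580.5 11.1 ± 3.71 with mitoxantrone, against 7.42 ± 2.58 and 3.49 ± 1.66 with DMSO. All 3 held few reads beside CTSD. How reads over shared bases were assigned is not given in the sources used here, so these small counts are uncertain.

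MAN2B1 (ENSG00000104774; chromosome 19, 12757325 to 12777556, minus strand) had 18.4, 16.4 and 17.0 FPKM with mitoxantrone, against 6.13, 5.53 and 6.17 with DMSO. Its mean normalized count was 1848 ± 131 with mitoxantrone and 598.6 ± 31.0 with DMSO. At 1.63 ± 0.08 its log2 fold change was the highest of the 7 genes with ample reads (3.08-fold; edgeR, adjusted p = 4.3e-22), and 40.0% of all higher genes had a smaller one. CTD-2192J16.22 shares 1887 bases with it on the same strand and had 22.9 ± 11.1 normalized counts with mitoxantrone, against 6.56 ± 3.20 with DMSO.

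The membrane sector of the pump was represented by 5 of the 9 genes. ATP6V0E1 (ENSG00000113732; chromosome 5, 172410760 to 172462448, plus strand), which encodes the small subunit e1, had 115, 119 and 114 FPKM with mitoxantrone, against 43.65, 47.58 and 47.65 with DMSO. This was the tightest mitoxantrone group of the 9 genes, with a coefficient of variation of 2.04% in normalized counts. The means were 3739 ± 76.2 with mitoxantrone and 1408 ± 74.9 with DMSO, a log2 fold change of 1.41 ± 0.07 (edgeR, adjusted p = 4.7e-22).

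ATP6V0D1 (ENSG00000159720; chromosome 16, 67471917 to 67515140, minus strand) encodes d1, the subunit of V0 that docks the central stalk, in the form found in most cells. It had 15.91, 15.05 and 14.35 FPKM with mitoxantrone, against 6.42, 6.75 and 6.93 with DMSO. The log2 fold change was 1.26 ± 0.07 (2.39-fold; 2468 ± 156 normalized counts with mitoxantrone and 1031 ± 40.4 with DMSO; edgeR, adjusted p = 1.6e-19).

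ATP6V0C (ENSG00000185883; chromosome 16, 2563871 to 2570219, plus strand) encodes the proteolipid c that forms most of the rotating ring. It had 45.5, 37.1 and 40.7 FPKM with mitoxantrone, against 21.2, 21.2 and 20.8 with DMSO. The mitoxantrone libraries were more scattered than the DMSO libraries, with coefficients of variation of 11.5% and 1.77% in normalized counts. Its log2 fold change of 1.05 ± 0.08 (edgeR, adjusted p = 5.6e-15) was the smallest of the 9, and when edgeR's glmTreat asked whether it exceeded 2-fold, the adjusted p was 0.13. The other 8 passed that test, ATP6V0D2 on 12 reads. So did 2204 of the 2677 genes called higher, which is 48.5% of all 4546 listed genes. Genes had entered the table by differing at least 2-fold in these same libraries. Passing is therefore no independent evidence of a difference beyond 2-fold. With TMM scaling, ATP6V1F and ATP6V0D1 were below 2-fold, at log2 fold changes of 0.939 and 0.998. RP11-20I23.1 covers the whole of ATP6V0C on the same strand and had 5.74 ± 4.55 normalized counts with mitoxantrone and 0.862 ± 1.49 with DMSO.

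The other 2 genes of the membrane sector encode forms known from specialised cells and were close to the limit of detection. ATP6V0A4 (ENSG00000105929; chromosome 7, 138391040 to 138484305, minus strand) encodes a4, the form of the large membrane subunit found in acid-secreting cells of kidney and inner ear. It had 20, 22 and 20 reads with mitoxantrone, against 4, 2 and 1 reads with DMSO. The groups did not overlap, and the log2 fold change was 3.41 ± 0.51 (edgeR, adjusted p = 1.0e-07). Its level stayed at 0.26 to 0.31 FPKM with mitoxantrone, against 0.01 to 0.05 with DMSO. The authors' deposited table gives a smaller log2 fold change for it, 2.82.

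ATP6V0D2 (ENSG00000147614; chromosome 8, 86999552 to 87166457, plus strand) encodes d2, the form of subunit d that osteoclasts and macrophages use. It had 1, 7 and 4 reads with mitoxantrone and 0 reads in each of the DMSO libraries. The 12 reads have an exact 95% Poisson interval of 6.20 to 21.0, which covers counting error only. Set against a floor of 3 reads over the DMSO group, its mean with mitoxantrone was 4.99-fold higher, a bound that was not itself tested. The edgeR test against no change belongs to the fitted log2 fold change, 5.21 ± 1.41 (adjusted p = 0.00082). Mitoxantrone 2 held 7 of the 12 reads, and without it the mean was 3.0-fold above that floor. At the lower Poisson limit of the 12 reads the gene was at least 2.58-fold higher. The authors' deposited log2 fold change for ATP6V0D2 was 1.91. Its FPKM over deposited lengths was 0.126%, 0.864% and 0.488% of that of ATP6V0D1 in mitoxantrone 1 to 3. These shares depend on length, since the deposited length was 4.79 times the principal transcript for ATP6V0D1 and 1.23 times for ATP6V0D2. Over principal transcripts the mitoxantrone means were 0.090 FPKM for ATP6V0D2 and 72.3 for ATP6V0D1, a lower share. Of 10 osteoclast markers 3 were listed, all of them higher. ACP5 averaged 17.4 ± 5.32 and ITGB3 68.5 ± 15.9 normalized counts with mitoxantrone, against 3.60 ± 2.55 and 20.2 ± 6.71 with DMSO. The log2 fold change of ACP5 was 2.24 over all libraries and 2.93 without DMSO 2. OSCAR had 23.0, 13.5 and 27.5 with mitoxantrone, against 8.57, 2.79 and 4.31 with DMSO. The sum of the 3 ran from 98.0 to 120 with mitoxantrone and from 22.4 to 37.2 with DMSO, and CTSK, CALCR, DCSTAMP and TNFRSF11A were not listed. Of 16 macrophage and leukocyte markers 3 were also listed and higher (CD14, ITGAX and CD8A), with a sum of 252 to 258 with mitoxantrone and 41.8 to 56.9 with DMSO, and the pan-leukocyte gene PTPRC was not listed. The part of these markers in the ATP6V0D2 reads was not tested. By GENCODE 29, PSKH2 and an antisense gene overlap ATP6V0D2 on the opposite strand. The pseudogenes AC023194.1 and AC023194.2 overlap it on the same strand, by 308 and 406 bases. The gene of origin of the 12 reads is therefore uncertain, and knowing the strand alone would not settle it.

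The ATP-hydrolysing sector had 1 listed gene. ATP6V1F (ENSG00000128524; chromosome 7, 128502880 to 128505898, plus strand) encodes subunit F of the central stalk. It had 118, 106 and 106 FPKM with mitoxantrone, against 49.9, 49.9 and 52.8 with DMSO. The log2 fold change was 1.20 ± 0.08 (2.30-fold; 1729 ± 129 normalized counts with mitoxantrone and 752 ± 21.1 with DMSO; edgeR, adjusted p = 4.5e-18). KCP covers it on the opposite strand and had 8.20 ± 1.45 normalized counts with mitoxantrone and 0.883 ± 0.040 with DMSO.

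**Figure D2:**
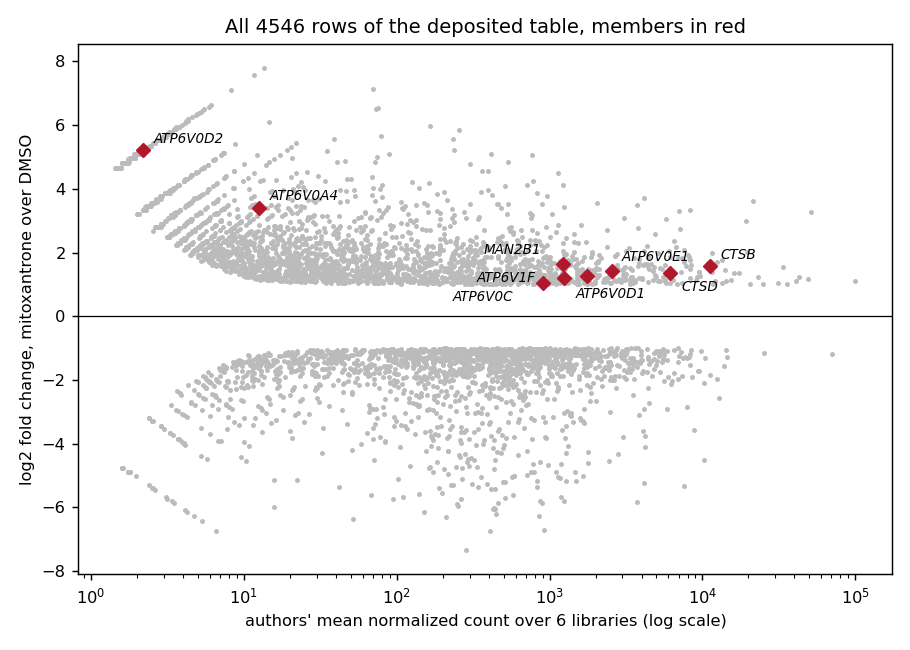
Log2 fold change of mitoxantrone over DMSO (y axis) against the authors' mean normalized count (x axis, log scale) for all 4546 listed genes (grey), with the 9 genes as red diamonds. The 7 genes with ample reads lie low in the band of higher genes, between 1.05 and 1.63, and the empty strip around 0 is the threshold of the deposited table.

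The pump is built from many more subunits than the table lists. Of 13 genes of the V1 sector 1 was listed, ATP6V1F, and 12 were not, among them the catalytic subunit ATP6V1A and both forms of ATP6V1B. Of 10 genes of the V0 sector 6 were listed and all 6 were higher, and their median log2 fold change was 1.33, whether ATP6V0D2 was taken as fitted or at 4.99-fold. The 6th, TCIRG1, encodes the a3 form of the large membrane subunit. It averaged 3127 ± 317 normalized counts with mitoxantrone and 1402 ± 44.8 with DMSO, a log2 fold change of 1.16 ± 0.07 (edgeR, adjusted p = 2.7e-18). Of the a forms, ATP6V0A1 and ATP6V0A2 were not listed. Among 12 genes of pump assembly and regulation 1 was listed, and it was lower. NCOA7, whose product binds the V-ATPase, fell to 1936 ± 142 normalized counts with mitoxantrone, against 5180 ± 111 with DMSO (log2 fold change -1.42 ± 0.07).

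Levels of different genes can be compared per length. In FPKM, CTSD was first with mitoxantrone at 149 ± 7.26, followed by ATP6V0E1 at 116 ± 2.42, CTSB at 113 ± 4.54 and ATP6V1F at 110 ± 6.75. The libraries of neighbours among these last 3 overlapped, so their order is not resolved. ATP6V0C at 41.1 ± 4.21, MAN2B1 at 17.3 ± 1.00, ATP6V0D1 at 15.1 ± 0.781, ATP6V0A4 at 0.290 and ATP6V0D2 at 0.073 came below, each with libraries apart from the next. With DMSO the order was CTSD at 61.1 ± 1.43, ATP6V1F at 50.9 ± 1.67, ATP6V0E1 at 46.3 ± 2.29, CTSB at 40.4 ± 1.31, ATP6V0C at 21.1 ± 0.228, ATP6V0D1 at 6.70 ± 0.259 and MAN2B1 at 5.94 ± 0.359. No neighbours overlapped there. MAN2B1 was thus above ATP6V0D1 with mitoxantrone and below it with DMSO.

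This order depended on the gene lengths behind the FPKM. The deposited lengths of 7 genes exceeded the principal transcript of GENCODE 29 by 1.12 to 1.69 times, while that of CTSB was 1.92 times and that of ATP6V0D1 4.79 times as long (8212 against 1716 bases). Over principal transcripts, CTSB reached 216 ± 8.71 FPKM with mitoxantrone and 77.5 ± 2.52 with DMSO, and CTSD 210 ± 10.3 with mitoxantrone and 86.3 ± 2.02 with DMSO. ATP6V0D1 reached 72.3 ± 3.74 with mitoxantrone and 32.1 ± 1.24 with DMSO, and then stood above ATP6V0C and MAN2B1 in both groups. A change of length moves both groups alike, so fold changes are not touched by it.

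**Figure D3:**
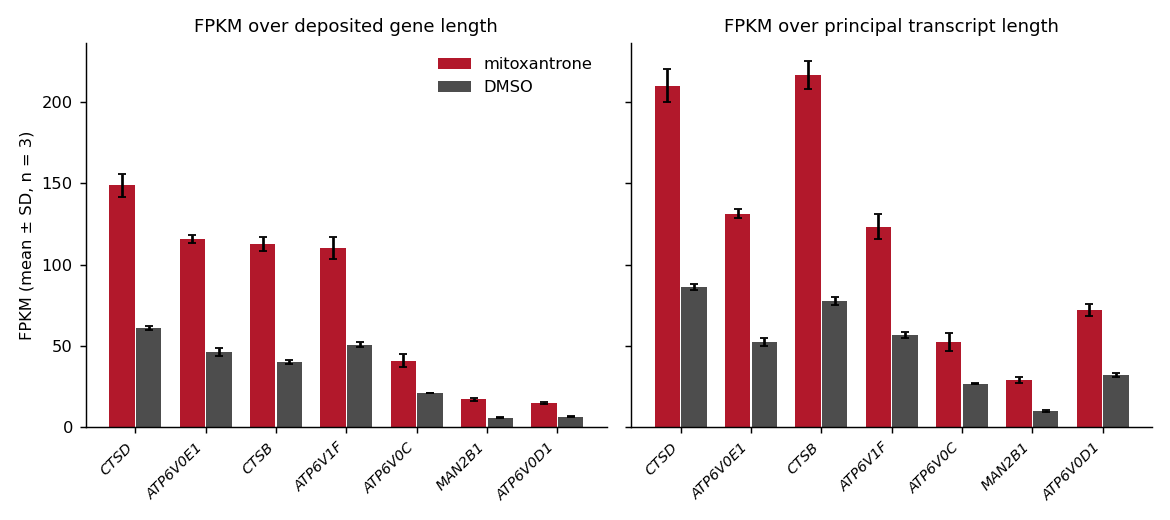
FPKM (mean ± SD, n = 3 libraries) of the 7 genes above 1 FPKM with mitoxantrone (red) and DMSO (grey), over the deposited gene length (left) and over the principal transcript length (right). CTSD leads with mitoxantrone at left, CTSB and CTSD reach 216 and 210 FPKM with mitoxantrone at right, and ATP6V0D1 stands at 15.1 FPKM with mitoxantrone at left and 72.3 at right.

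Whether the genes differed by the same factor was compared through 7 ratios of reads between 2 genes within a library, which need no scaling. The ratio of CTSB to CTSD reads was 1.85, 1.93 and 1.87 with mitoxantrone, against 1.62, 1.64 and 1.66 with DMSO, or 1.15 times as high. The ratio of CTSD to MAN2B1 reads was 4.80 ± 0.133 with mitoxantrone and 5.76 ± 0.479 with DMSO. Among pump genes, the ratio of ATP6V0E1 to ATP6V0C reads was 3.08 ± 0.366 with mitoxantrone and 2.38 ± 0.132 with DMSO, that of ATP6V0D1 to ATP6V0C 2.03 ± 0.173 and 1.74 ± 0.0815, and that of ATP6V0E1 to ATP6V0D1 1.52 ± 0.0786 and 1.37 ± 0.0255. In these 5 ratios the groups did not overlap (two-sided exact permutation p = 0.10 each, 0.14 after adjustment over the 7). Ratios that share genes are linked, so the 5 are not independent observations. The smallest p that 3 against 3 libraries allow is 0.10, so none could pass 0.05. The ratios of CTSB to MAN2B1 (9.04 ± 0.441 with mitoxantrone and 9.44 ± 0.803 with DMSO; exact p = 0.60) and of ATP6V1F to ATP6V0D1 (0.700 ± 0.0186 and 0.730 ± 0.0186; exact p = 0.30) overlapped between groups.

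**Figure D4:**
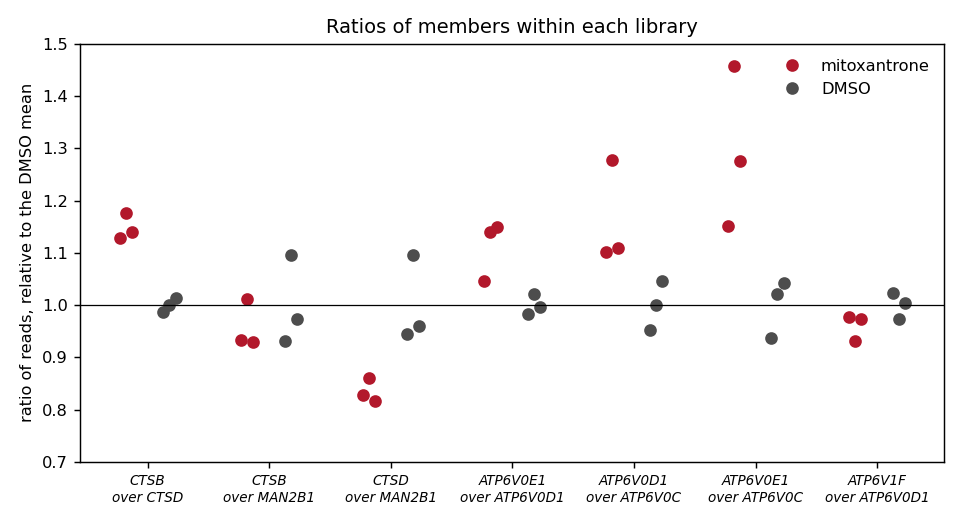
Ratios of reads between 2 genes within each library, divided by the mean ratio of the DMSO libraries (y axis), for mitoxantrone (red) and DMSO (grey) libraries. The mitoxantrone points of the CTSB to CTSD ratio all lie above the DMSO points, and those of CTSB to MAN2B1 overlap them.

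Other lysosome and autophagy genes were taken from 12 lists of 213 genes, of which 57 were listed. Of these, 54 were higher and 3 lower, against 58.9% higher and 41.1% lower among all listed genes. Without the 9 genes above, 45 were higher and 3 lower, and the median of their log2 fold changes was 1.36. In 39 of these 48 the mean normalized count reached 50. Over those 39 genes the SE of the log2 fold change ran from 0.06 to 0.23, the largest adjusted p was 5.1e-09 in edgeR, and the groups did not overlap in any. The remaining 156 were not listed, so these counts do not describe whole lists. The median over all 4546 listed genes, higher and lower together, was 1.20. Over the 2677 higher genes it was 1.87, and over the 1180 of them with a mean of at least 50 it was 1.46.

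Of 23 peptidases 10 were listed, 9 higher and 1 lower. CTSS, a cathepsin of antigen processing, was 4.11-fold higher at 529 ± 22.2 normalized counts with mitoxantrone, against 128 ± 6.39 with DMSO. TPP1, a tripeptidyl peptidase gene, was 2.65-fold higher, CTSO 3.38-fold, CPQ 2.32-fold, CTSH 2.50-fold and CTSA, which protects other hydrolases, 2.23-fold. CTSV, a close relative of the unlisted CTSL, was the exception and fell to 37.6 ± 9.97 with mitoxantrone, against 141 ± 13.5 with DMSO (log2 fold change -1.89 ± 0.19). CTSC, CTSL, CTSZ and LGMN were not listed. CPVL, with 13.8 ± 9.54 normalized counts with mitoxantrone and 5.34 ± 2.01 with DMSO, lost its call without mitoxantrone 2 (log2 fold change 0.64, edgeR adjusted p = 0.32) and without DMSO 1 (1.12, adjusted p = 0.054). It also missed the threshold with DESeq2 (adjusted p = 0.051) and with limma on log2(FPKM + 0.1) (adjusted p = 0.072).

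Cystatins inhibit cysteine proteases such as cathepsin B, and 5 of 9 were listed, all higher. CST3, the secreted cystatin C, averaged 6602 ± 298 normalized counts with mitoxantrone and 2240 ± 2.99 with DMSO (log2 fold change 1.56 ± 0.06), and CSTB, the intracellular cystatin B, 1958 ± 119 and 927 ± 80.9 (1.08 ± 0.08). CST4 and CST6 had 9 and 10 reads over the mitoxantrone libraries and 0 with DMSO. CST1 had 27 reads with mitoxantrone and 7 with DMSO, its groups overlapped, and its call was lost without mitoxantrone 2 (log2 fold change 1.62, edgeR adjusted p = 0.053). Its log2 fold change was 2.21 over all libraries and 2.84 without DMSO 2.

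Glycosidases other than MAN2B1 were higher in all 7 listed cases, of 22 genes in the list. IDUA, which degrades heparan and dermatan sulfate, was 3.55-fold higher, FUCA1, a fucosidase, 2.49-fold, NEU1, a sialidase, 2.39-fold and GAA 2.27-fold. MAN2B2, the relative of MAN2B1, was 2.04-fold higher, and the hyaluronidase genes HYAL1 and HYAL2 4.91-fold and 2.12-fold. HEXA and GLB1 were not listed. Among 9 sulfatase genes 3 were listed and higher, among them ARSA at 3.41-fold and SUMF1, whose product activates sulfatases, at 3.15-fold.

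The 18 lipid, phosphate and nucleic acid hydrolases and activators had 11 listed genes, all higher, with a median log2 fold change of 1.20. GM2A, the activator that presents ganglioside GM2 for degradation, averaged 1424 ± 71.7 normalized counts with mitoxantrone and 276 ± 49.9 with DMSO, or 5.15-fold higher. PLA2G15, a phospholipase, was 3.42-fold higher, SIAE 2.61-fold and NPC2, which binds cholesterol, 2.56-fold. LIPA was 2.28-fold, SMPD1 2.30-fold, ASAH1 2.11-fold, PLBD2 2.12-fold and PLD3 2.05-fold higher, and ACP5 was given above with the osteoclast markers. PSAP, the precursor of the saposins, averaged 42112 ± 2249 with mitoxantrone and 20363 ± 454 with DMSO.

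Of a list of 30 genes for lysosomal membrane proteins 5 were listed in the table, all higher. TPCN1, a two-pore channel gene, was 3.63-fold higher, SLC17A5, the sialic acid exporter, 4.04-fold, GLMP (listed as C1orf85) 3.42-fold and HGSNAT, an acetyltransferase, 2.13-fold. LAPTM5 had 77 reads with mitoxantrone and 3 with DMSO, which is 32.4 times as many after scaling (exact 95% binomial interval 10.7 to 161, counting error only). Without DMSO 1, which held 2 of the 3 reads, the ratio was 64.0 (11.1 to 2559), and without DMSO 3, which held 0, it was 21.4 (7.05 to 106). LAMP1, LAMP2, CD63, NPC1, MCOLN1 and CLCN7 were not listed.

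Of the genes that tag and sort hydrolases, GNPTAB and GNPTG, both subunits of the phosphotransferase for mannose 6-phosphate, were higher, at 2.10-fold and 2.25-fold. The receptors IGF2R and M6PR were not among the 2 listed of 9. Of the 20 genes of TFEB and its control, LAMTOR1, an anchor of mTORC1 on the lysosome, was the single listed gene, at 2.61-fold higher. TFEB, TFE3 and MITF were not listed, and their levels were not analysed here. Autophagy had 4 listed genes of 38, with WIPI1 at 5.10-fold higher, ATG2A at 2.74-fold higher, ATG9B at 15.1 ± 3.52 normalized counts with mitoxantrone and 2.10 ± 1.46 with DMSO, and ATG5 2.07-fold lower. The log2 fold change of ATG9B was 2.78 over all libraries and 3.41 without DMSO 2. SQSTM1 and the LC3 genes were not listed.

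**Figure D5:**
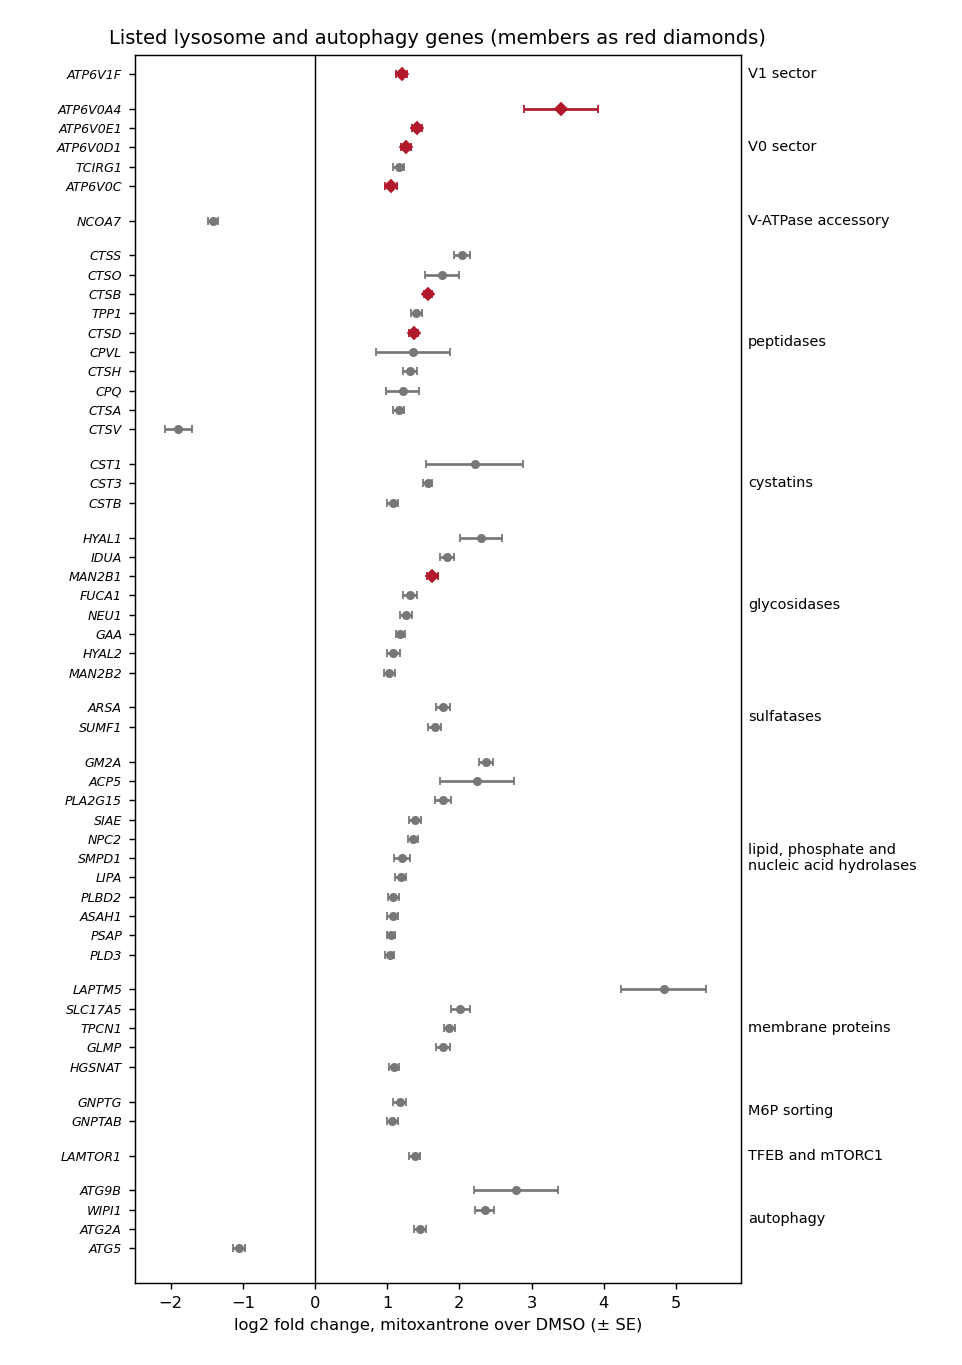
Log2 fold change of mitoxantrone over DMSO (x axis, ± SE from edgeR) for genes of the 12 lists, grouped by list, with members of the hydrolase and pump set as red diamonds. Genes with 0 reads in DMSO (ATP6V0D2, CST4 and CST6) are left out. NCOA7, CTSV and ATG5 lie left of 0.

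Annotation terms deposited with the table were also counted, and these terms were picked after the data were seen. Of all 4546 listed genes, 58.9% were higher. The terms share genes with each other and with the gene lists above, GAA, NEU1 and PSAP among them. Their counts are therefore not separate observations, and they were not tested against the share over all listed genes. Of 53 listed genes with the term lysosome, which include CTSB, CTSD and MAN2B1, 49 were higher and 4 lower (SYT7, VAMP4, GGH and GOT1). All 32 genes with the term lysosomal membrane were higher. Of 29 with the term lysosomal lumen 27 were higher, and GPC6 and CTSV were lower. The term for ATP hydrolysis coupled proton transport held 8 genes, all higher, of which 6 were the ATP6V genes above. The term autophagy was mixed, with 6 higher and 4 lower (ATG5, PRKAA2, RAB33B and BNIP1).

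Genes whose pattern was most like each of these genes were sought among the 2622 genes whose mean normalized count reached 50. The measure was the Euclidean distance over the 6 libraries between log2(normalized count + 1) values centred on each gene. GNPDA1, a glucosamine phosphate deaminase gene, was nearest to CTSB at 0.0616, followed by CAPN1 at 0.0761 and REEP2 at 0.0887. DDR1, a collagen receptor gene, was nearest to CTSD at 0.0411, followed by TGM2 at 0.0800 and ANXA4 at 0.0870. For MAN2B1 the nearest were RALGDS (0.0874), LAMB3 (0.0888) and ABCA2 (0.144), a transporter of the lysosomal membrane. Among the pump genes the nearest were CACNA1G to ATP6V0D1 (0.0376), STEAP3 to ATP6V1F (0.0521), ANXA4 to ATP6V0E1 (0.0618), RABGGTA to ATP6V0C (0.0853) and TSPAN10 to ATP6V0A4 (0.474). PLD3 was the next after RABGGTA for ATP6V0C, at 0.113. Every gene searched had passed the table's threshold on the difference between the 2 groups, a difference these profiles share.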

How the data were processed

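The deposited table holds, per the file headers, raw counts and FPKM for each gene in each library. The submitters' processing notes list HTSeq 0.6.1, Cufflinks 2.2.1, cutadapt 1.9.1, SAMtools 0.1.19, DESeq2 and HISAT2 2.0.1, in no order. Build, annotation and strand setting were not given in the sources used here. The labels' protocols leave it unclear if mRNA was isolated by poly(A) or by rRNA depletion. For each gene the authors deposited a mean normalized signal, a log2 fold change, its error, a test score (the quotient of that pair), and raw and adjusted p-values.

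A least-squares solution of the deposited means on the counts returned the size factors, and genes at 20 FPKM or more returned the library totals. Libraries of a group differed beyond counting noise (chi-square per degree of freedom of 1.72 to 6.55). Groups were compared over all 4546 genes, unfiltered, by the quasi-likelihood F-test of edgeR 4.0.16 (R 4.3.3), with Benjamini-Hochberg adjustment and a threshold of 0.05. The SE is the log2 fold change divided by the square root of F. What edgeR calls the biological coefficient of variation was 6.68%, estimated over the listed genes only. These were selected on the same libraries, and the spread among libraries may be technical. The fit was also run on simulated counts with known changes. Alternatives were TMM, library-total and column-total scaling, DESeq2 1.42.0, limma 3.58.1 on log2(FPKM + 0.1), glmTreat, a count filter, a replicate block and leaving out single libraries.

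The genes and lists were chosen with earlier results of these data known. The text names all 9 genes, listed members of the lists (some are not reported here), and the nearest 3 profiles of those whose mean reached 10. List symbols were matched by identifier (4371 of 4546 identifiers were in the name table). Principal transcripts were those of GENCODE 29 with the best APPRIS and support level, and the longest of these.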

Additional observations from a re-analysis of the deposited data

How the results depend on the processing

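Under other scalings, tools and filters, and without single libraries, 124 of 125 values of the 9 genes stayed on the same side of the threshold in the same direction, and 0 changed sign. The exception was ATP6V0C against a 2-fold change, at 1.05 with an adjusted p of 0.13 (glmTreat), where the stricter null is the cause. TMM scaling on the listed genes moved all log2 fold changes by a median of -0.26, and library totals and column totals by -0.08 and -0.06. Under TMM, ATP6V0C, ATP6V1F and ATP6V0D1 had log2 fold changes of 0.786, 0.939 and 0.998, all below 2-fold. ATP6V0C was also below 2-fold with library totals (0.961), column totals (0.980) and limma (0.953), and without mitoxantrone 1 (0.958). The TMM factors came from listed genes only, all of them selected as changed. The glmTreat test was run with the recovered size factors only, so its calls depend on that scaling. Log2 fold changes without single libraries ran from 1.53 to 1.60 for CTSB, 1.32 to 1.40 for CTSD and 1.57 to 1.67 for MAN2B1. For other lysosome and autophagy genes, 652 of 668 values kept direction and side, and 0 reversed. Calls among the 57 were 43 higher and 2 lower against a 2-fold change and 49 and 3 with at least 10 counts in at least 3 libraries, a filter that removed ATP6V0D2. Of all 4546 listed genes, 48.5% were called higher against a 2-fold change. The share over all genes under the filter is not given here, and nothing is read from these counts. Libraries with the same number showed no shared deviation (r = -0.07, -0.08 and 0.03 across 2622 genes, which are not independent replicates). The replicate block left 9 of the 9 genes called, with 2677 higher and 1869 lower over all genes. With principal transcript lengths, chosen after seeing the data, the ratio of CTSB to CTSD FPKM was 1.03 with mitoxantrone and 0.898 with DMSO, in place of 0.759 and 0.661, by construction. The ratios of ATP6V0D2 and LAPTM5 without single libraries, and the Poisson limit of the ratio of ATP6V0D2, were also added after seeing the data. Depth limits ATP6V0D2 and ATP6V0A4: fitted log2 fold changes ran from 0.74 to 5.67 for the one and from 1.63 to 3.98 for the other, the lowest with limma on log2(FPKM + 0.1), which understates low genes.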
